A study of Homo sapiens with 4 samples.

Results

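The IFIT and IFI genes are named for their induction by interferon, and 9 of them were examined here: IFIT1, IFIT2, IFIT3, IFIT5, IFI44, IFI44L, IFI6, IFI27 and IFI35. They were chosen by symbol, with their array values already known, and all 9 were found among the 17687 genes with a named probe set, each measured by 1 probe set. Because the shCD267 minus Ctrl values took part in that choice, those values are given below as a description. PC3 and 22RV1 (PC-3 and 22Rv1) are established human prostate cancer cell lines, the first independent of androgen and the second with an androgen receptor, grown in F-12 and RPMI medium. Total RNA of 4 samples was hybridised to 4 Affymetrix arrays, 1 per group, and the groups were PC3 shCD267, PC3 Ctrl, 22RV1 shCD267 and 22RV1 Ctrl. The shCD267 cells stably carried a lentiviral short hairpin RNA against TNFRSF13B, a receptor of the tumour necrosis factor family also called CD267, and the Ctrl cells carried the same pLKO.1 vector without a hairpin. Both were selected in puromycin, a single hairpin sequence was used, and no group had a replicate array. No difference below therefore has a replicate error or a test, and with 4 arrays in all the precision is limited. The RNA came from whole cultures, so more expressing cells and more RNA per cell cannot be told apart. The question addressed was how these genes stood with and without the knockdown in each line.

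Type I and type III interferons bind receptors that activate the kinases JAK1 and TYK2, which phosphorylate STAT proteins. STAT proteins and IRF9 then bind a promoter element, the interferon-stimulated response element (ISRE), and switch on a large set of genes. The IFIT proteins are built of tetratricopeptide repeats and bind viral RNA or the translation machinery. IFI6 and IFI27 are small hydrophobic proteins of cell membranes, IFI44 and IFI44L are a related pair of cytoplasmic proteins, and IFI35 is a leucine zipper protein that binds its relative NMI. Cells make such proteins after infection, after exposure to interferon, or when double-stranded RNA is sensed inside the cell.

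The promoters of these genes are shown because interferon is known to act through elements of this kind. Windows of 300 bases, from 250 before to 50 after a gene's start, were taken from RefSeq for GRCh38.p14, which held a window for 8 of the 9 genes, all but IFIT2. The ISRE core was searched as GAAA, any 2 bases and GAAA, on both strands, where the other strand reads TTTC, any 2 bases and TTTC. It was found in 7 of the 8 genes, in 4.13% of the 14250 measured genes with a window, and in 3.57% of all 35116 windows. The core is not particular to these genes. It was in 66.7% of 33 other type I interferon-stimulated genes with a window, taken up below. It was also in 42.9% of 7 relatives by name or function and in 14.3% of 7 signalling genes and regulators. Of the 825 genes with a window that were at least 2-fold higher in PC3 shCD267 than in PC3 Ctrl, 11.2% held the core. The stretch around the matches is printed below, 5′ to 3′ on the gene's strand, with the matches in capitals.
IFIT1, chr10:89392492-89392544, plus strand: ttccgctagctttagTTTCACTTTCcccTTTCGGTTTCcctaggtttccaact
IFIT3, chr10:89327826-89327899, plus strand: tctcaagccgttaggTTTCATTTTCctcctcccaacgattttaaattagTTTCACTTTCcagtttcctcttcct
IFIT5, chr10:89414508-89414567, plus strand: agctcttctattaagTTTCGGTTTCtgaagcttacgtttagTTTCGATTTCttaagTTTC
IFI44, chr1:78649756-78649788, plus strand: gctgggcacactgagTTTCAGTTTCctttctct
IFI44L, chr1:78620269-78620399, plus strand: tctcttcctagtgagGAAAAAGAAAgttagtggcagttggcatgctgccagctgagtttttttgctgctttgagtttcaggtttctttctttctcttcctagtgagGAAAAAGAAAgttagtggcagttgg
IFI6, chr1:27672261-27672363, minus strand: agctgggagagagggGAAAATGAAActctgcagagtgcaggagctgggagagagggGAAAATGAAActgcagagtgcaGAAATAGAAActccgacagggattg
IFI27, chr14:94110613-94110665, plus strand: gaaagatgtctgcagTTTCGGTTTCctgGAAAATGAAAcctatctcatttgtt
IFIT1B, chr10:89377925-89377977, plus strand, the same distance from its start as the IFIT1 stretch and without a match: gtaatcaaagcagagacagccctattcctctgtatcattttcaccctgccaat

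The cores lay close to the start sites. In IFIT1 they began at -116 and -103, counted from the start, in IFI27 at -108 and -95, and in IFI44 at -18. The 2 cores of IFIT1 and of IFI27 lie within one short stretch, with the cores of IFI27 on opposite strands. IFIT5 has 3 cores, at -45, -19 and -4, the last of which runs past the start and is cut at the end of the printed stretch. IFI44L and IFI6 share a different arrangement, in which a repeated piece of promoter carries the core. In IFI44L a stretch of 85 bases occurs 2 times, from -189 and from -98, and in IFI6 a stretch of 29 bases occurs from -173 and from -132, with 1 core in each copy. The other 6 genes with a window had a longest repeat of 7 to 12 bases, and 1.03% of 27305 genes had one of 25 or more, a length set after these repeats were seen. IFI35 held no ISRE core, but a second element, searched as TTC, any 3 bases and GAA on both strands, stood at -22. It was also found in IFI27, at -101 and overlapping both cores, so that 2 of the 8 genes held it. It was in 30.3% of the 33 other interferon-stimulated genes, 9.02% of measured genes and 7.66% of all windows. The match is shown in capitals.
IFI35, chr17:43006747-43006783, plus strand: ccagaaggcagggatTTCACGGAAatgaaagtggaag
A match of letters is a description of the window and does not show that a factor binds there.

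Several properties of the arrays bear on the values. The 22RV1 Ctrl array had a median of 5.33 over all probe sets, against 6.93 to 7.01 on the other 3, so the median shCD267 minus Ctrl log2 ratio of all genes was 1.22 in 22RV1 and -0.0019 in PC3. Values in 22RV1 are therefore given on a pair of scales, the deposited one and one with all 4 arrays set to a common distribution by quantile normalization, where that median is -0.0587. A background limit was set on each array as the 95th percentile of 349 olfactory receptor genes, which these cells are not known to use. It stood at 4.98 and 4.92 on the PC3 shCD267 and PC3 Ctrl arrays and at 5.30 and 3.91 on those of 22RV1. The target TNFRSF13B stood at 4.85 in PC3 shCD267 and 5.25 in PC3 Ctrl, and at 5.63 in 22RV1 shCD267 and 6.08 in 22RV1 Ctrl, lower with the hairpin in both lines by less than 2-fold as deposited. After quantile normalization its log2 ratio was -0.43 in PC3 and -2.20 in 22RV1, and its PC3 shCD267 value lay below the background limit. The study reported lower TNFRSF13B protein with the hairpin in both lines by western blot, whereas these arrays measure RNA. Of 8 markers of PC3 cells, 6 were at least 2-fold higher in PC3 Ctrl than in 22RV1 Ctrl after quantile normalization, and of 7 luminal markers 4 were lower, whereas HOXB13 was higher. With deposited values 7 PC3 markers were higher, and 2 luminal markers were lower and 2 higher. FOLH1, the prostate-specific membrane antigen, stood at 14.29 in 22RV1 Ctrl and below background in PC3 Ctrl. KLK3, which encodes PSA, stood at 6.38 in 22RV1 Ctrl and 6.99 in PC3 Ctrl as deposited, and at 7.74 and 6.61 after quantile normalization. Between the 22RV1 arrays, 5 of the 8 PC3 markers were at least 2-fold lower with shCD267 after quantile normalization and 1 higher. Among all genes 15.5% were lower and 13.3% higher on that scale. With values below background taken at the limit, 3 markers were lower. The log2 ratio was -5.47 for ANXA1 and -3.07 for CD44. As deposited 2 of the 8 were lower and 2 higher, where 2.01% and 58.3% of all genes were. The PC3 marker TGFBI was below background on all 4 arrays. None of 9 leukocyte markers differed by 2-fold between the PC3 arrays, where 5.76% of all genes were at least 2-fold higher and 4.69% lower. They ran from 3.45 to 7.03 with shCD267 and from 2.63 to 6.84 with Ctrl. Only 3 of them with shCD267 and 4 with Ctrl were at or below the limit. On the 22RV1 arrays they reached 6.94 with shCD267 and 5.71 with Ctrl. A value above the limit therefore does not by itself show that a gene is expressed.

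All 9 genes were at least 2-fold higher in PC3 shCD267 than in PC3 Ctrl. Among all genes 5.76% were at least 2-fold higher and 4.69% at least 2-fold lower, and since the choice of these genes used this contrast, nothing is read from the count. Their log2 ratios ran from 1.68 to 10.25 with a median of 5.29. In rank among the 17687 ratios, 3 of them lay in the first 10 and 7 in the first 100, and the other 2, IFI35 and IFIT5, held ranks 115 and 337. The lowest ratio past 2-fold was that of IFIT5, and no gene lay outside the threshold in this line.

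**Figure D1:**
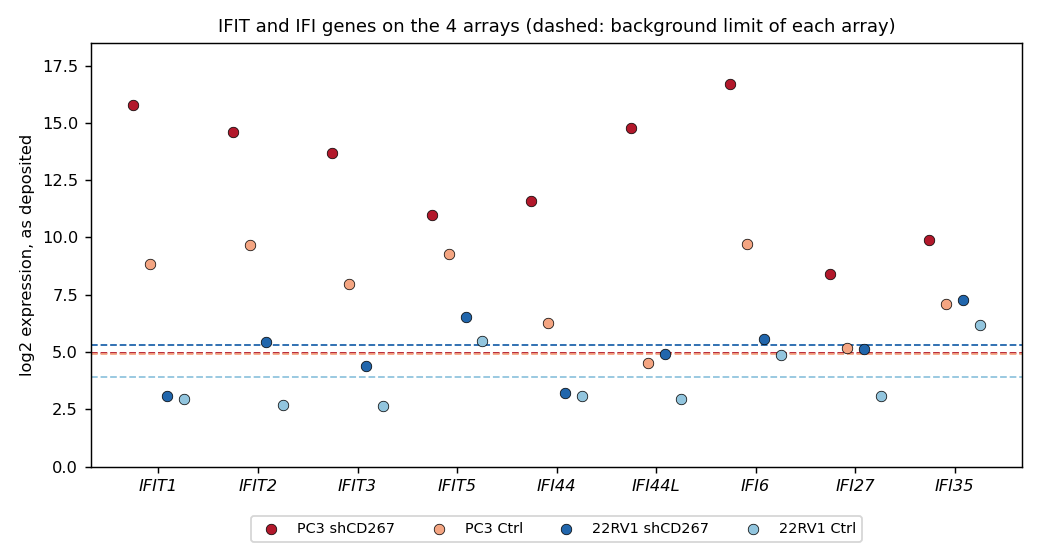
Log2 expression as deposited of the 9 IFIT and IFI genes (horizontal axis), 1 point per array, with a dashed line at the background limit of each array. The PC3 shCD267 point is the highest for every gene, and 5 genes lie below the limits on both 22RV1 arrays.

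Among the IFIT genes, IFIT1, which recognises viral RNA with an incompletely methylated cap, had the highest PC3 ratio. Its log2 expression was 15.78 in PC3 shCD267 and 8.86 in PC3 Ctrl, a 121-fold difference. In 22RV1 it was 3.07 with shCD267 and 2.96 with Ctrl, below the background limits of both arrays. IFIT1 was therefore above background on both PC3 arrays and not detectable above it on either 22RV1 array.

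IFIT3, which binds and stabilises IFIT1, stood at 13.70 in PC3 shCD267 and 7.97 in PC3 Ctrl, a 53.1-fold difference. Its values of 4.39 and 2.63 in 22RV1 shCD267 and 22RV1 Ctrl were under the limits of those arrays. IFIT2, a partner of both in the same complex, stood at 14.62 in PC3 shCD267 and 9.66 in PC3 Ctrl, 31.3-fold apart. It was the 1 IFIT gene that passed the background limit in 22RV1 with the hairpin only, at 5.43 against 2.67 in 22RV1 Ctrl, which is at least 2.88-fold higher as deposited. After quantile normalization the bound was 1.15-fold, with the 22RV1 shCD267 value just above the limit of 4.85 that the Ctrl array then has.

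IFIT5, which binds RNA with an uncapped end and also certain tRNAs, had the smallest ratio of the set in PC3. Its values were 10.97 in PC3 shCD267 and 9.30 in PC3 Ctrl, a 3.19-fold difference. In 22RV1 it was above background on both arrays, at 6.54 with shCD267 and 5.48 with Ctrl. With shCD267 it was 2.08-fold higher on the deposited scale, but its log2 ratio became -0.58 when the arrays were quantile-normalized, so its direction in 22RV1 rests on the scale. With 1 array per group, the order IFIT1, IFIT3, IFIT2, IFIT5 of the PC3 ratios cannot be set against an error.

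IFI44L had the largest log2 ratio of any gene in PC3. It went from 4.52 in PC3 Ctrl, below the limit of that array, to 14.76 in PC3 shCD267, at least 919-fold higher when the limit is taken in place of the Ctrl value. In 22RV1 it stood at 4.91 with shCD267 and 2.97 with Ctrl, under both limits. IFI44L is widely used in blood signatures of interferon activity, and here it was the 1 member at background in PC3 Ctrl cells. Its neighbour and relative IFI44 stood at 11.57 in PC3 shCD267 and 6.28 in PC3 Ctrl, 39.1-fold apart, and at 3.23 and 3.07 in 22RV1, again under both limits.

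IFI6, a protein of the endoplasmic reticulum and mitochondria that restricts some RNA viruses and limits apoptosis, stood at 16.71 in PC3 shCD267 and 9.73 in PC3 Ctrl. This was a 126-fold difference, close to that of IFIT1. In 22RV1 its values of 5.57 with shCD267 and 4.89 with Ctrl were above the limits of both arrays. The 22RV1 log2 ratio was 0.68 with deposited values and -0.85 with quantile-normalized ones, under 2-fold on both scales and opposite in sign.

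IFI27, a relative of IFI6 that promotes apoptosis and is a common marker of viral infection in blood, had a smaller ratio. Its PC3 values were 8.39 with shCD267 and 5.18 with Ctrl, just above the limit, a 9.23-fold difference. In 22RV1 it stood at 5.14 and 3.09, below both limits. IFI35 stood at 9.90 in PC3 shCD267 and 7.10 in PC3 Ctrl, a 6.97-fold difference. In 22RV1 IFI35 stood at 7.25 with shCD267 and 6.19 with Ctrl. Its log2 ratio there was 1.06 with deposited values and -0.71 with quantile-normalized ones. Like IFIT5, IFI35 was above background on all 4 arrays and had one of the smaller ratios in PC3.

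In 22RV1, 6 of the 9 genes were at least 2-fold higher with shCD267 as deposited, where 58.3% of all genes were at least 2-fold higher and 2.01% at least 2-fold lower. After quantile normalization 3 were, IFIT2, IFIT3 and IFI27, where 13.3% of all genes were higher and 15.5% lower. None was at least 2-fold lower on either scale. The lowest ratio past the threshold as deposited was that of IFIT5, 1.06, and the highest under it that of IFI6, 0.68. After quantile normalization these were IFI27, 1.01, and IFI44L, 0.95. The median ratio of the 9 genes was 1.06 as deposited, beside 1.22 over all genes, and -0.58 after quantile normalization.

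Only 4 of the 9 genes could be measured above background on at least 1 array of 22RV1. These were IFIT2, IFIT5, IFI6 and IFI35, with the 22RV1 Ctrl value of IFIT2 below its limit. Of these, IFIT2, IFIT5 and IFI6 lay below the highest leukocyte marker on both 22RV1 arrays, 6.94 with shCD267 and 5.71 with Ctrl. With a value below the limit taken at the limit and pairs below both limits not counted, 3 of the 9 were at least 2-fold higher on the deposited scale, IFIT2, IFIT5 and IFI35, and 0 after quantile normalization. The log2 ratios of the other 5, IFIT1, IFIT3, IFI44, IFI44L and IFI27, ran from 0.11 to 2.05 as deposited but compare values that both lie under the background limits, so no fold is given for them. At this level a difference between the 22RV1 arrays was not detectable.

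**Figure D2:**
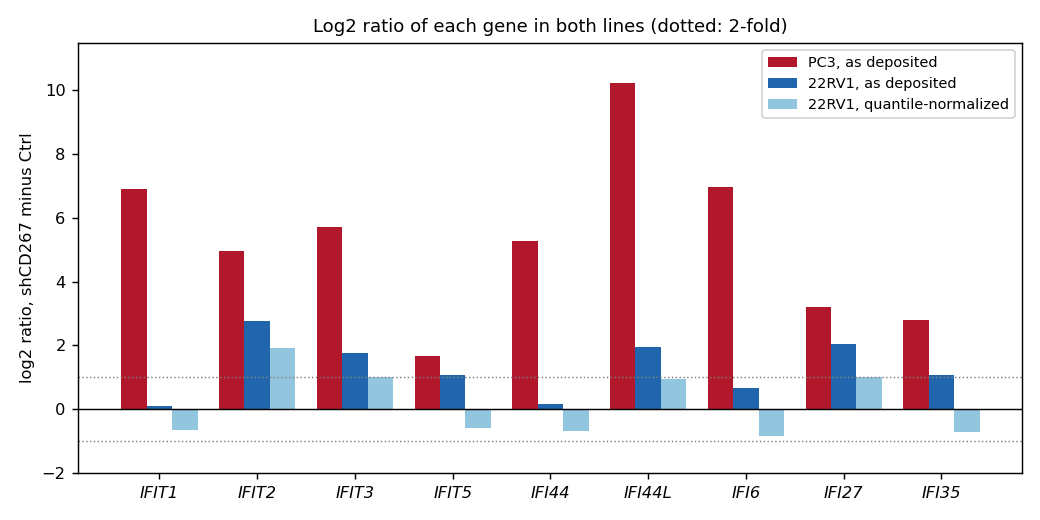
Log2 ratio, shCD267 minus Ctrl (vertical axis), of each of the 9 genes in PC3 as deposited, in 22RV1 as deposited and in 22RV1 after quantile normalization, with dotted lines at 2-fold. All 9 PC3 bars pass 2-fold, whereas 6 of the 22RV1 bars do as deposited and 3 after quantile normalization, and no bar reaches 2-fold lower.

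The PC3 ratio was higher than the 22RV1 ratio for all 9 genes. As deposited the difference between the ratios was at least 2-fold for 8 of them, beside 4.31% of all genes. It ran from 0.62 for IFIT5 to 8.31 for IFI44L, and its median over all genes was -1.19. After quantile normalization it was at least 2-fold for all 9, beside 20.5% of all genes. Its median was then 4.98 for the 9 and 0.08 over all genes. For 5 of the 9 the 22RV1 ratio compares values below background. The choice of the genes used the PC3 ratio, which is part of this difference, so nothing is read from these counts. This difference between the lines was not tested, since each ratio rests on 1 pair of arrays.

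The Ctrl arrays of the lines were also compared. As deposited, all 9 genes were higher in PC3 Ctrl than in 22RV1 Ctrl and 8 were so by at least 2-fold, beside 55.1% of all genes. After quantile normalization 7 were, beside 19.6% of all genes, with a median difference of 2.20 on the log2 scale. However, 6 of the 9 were at or below the background limit in 22RV1 Ctrl. For 5 of these a lower bound was taken, with the limit in place of the 22RV1 Ctrl value. The other, IFI44L, was below the limits on both Ctrl arrays, so its difference has no bound. Against the limit, the log2 difference of IFIT2 was at least 5.75 with deposited and 4.29 with quantile-normalized values, and that of IFIT1 at least 4.96 and 3.52. Counted in this way, 7 genes were at least 2-fold higher in PC3 Ctrl as deposited and 6 after quantile normalization. The share of all genes was not counted in this way. The 9 genes were chosen with their array values known, and each line has 1 Ctrl array, so nothing is read from these counts. IFIT5, IFI6 and IFI35 were measured on both Ctrl arrays, with quantile-normalized differences of 2.06, 3.18 and -0.84. All of the 9 but IFI44L were above background in PC3 cells that carried the empty vector.

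**Figure D3:**
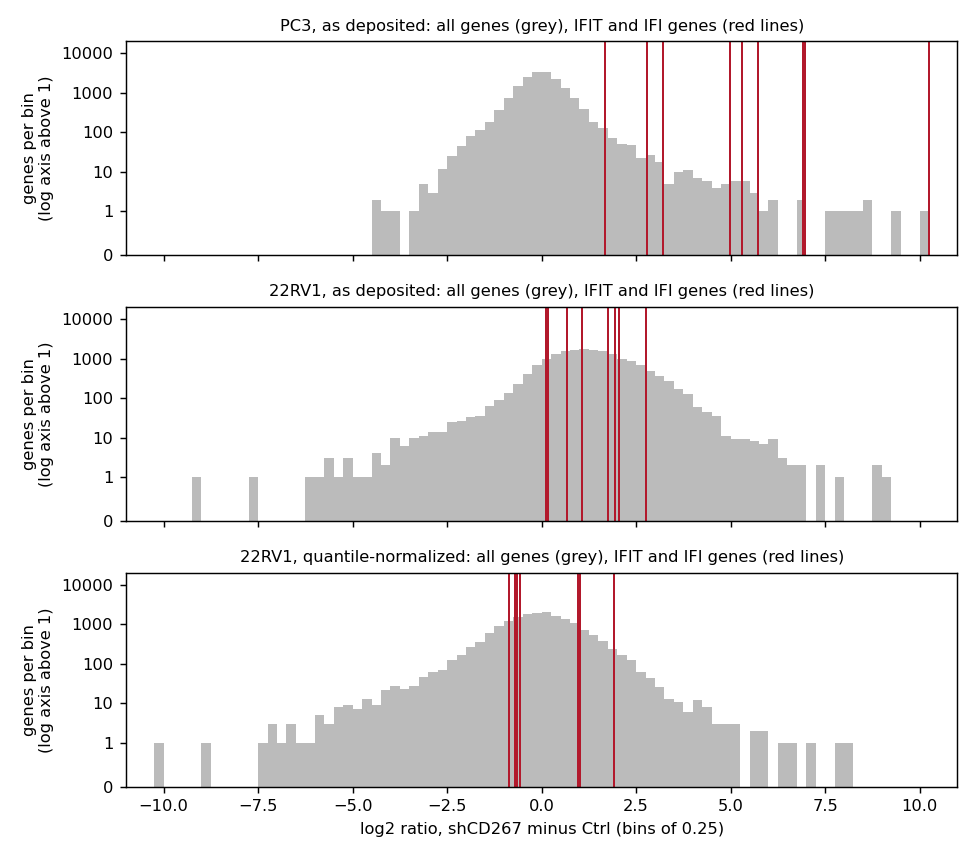
Number of genes in bins of 0.25 of the log2 ratio, shCD267 minus Ctrl (horizontal axis; the vertical axis is logarithmic above 1), for PC3 as deposited, 22RV1 as deposited and 22RV1 after quantile normalization, with a red line at each of the 9 genes. In PC3 the 9 lines lie from 1.68 to 10.25, in the upper tail, and in 22RV1 they lie from 0.11 to 2.77 as deposited, with IFIT2 the highest, above 91.1% of all genes.

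The nearest measured genes on the chromosome were compared with the 9. The IFIT genes form a cluster on chromosome 10, in which IFIT1B, a paralogue between IFIT3 and IFIT1, stood at 4.03 in PC3 shCD267 and 4.42 in PC3 Ctrl, under both limits. LIPA, the lysosomal acid lipase gene before IFIT2, stood at 12.02 and 12.11. PANK1, beyond IFIT5, had a log2 ratio of -0.04, and SLC16A12 between them was below background on both PC3 arrays. The 4 IFIT genes were at least 2-fold higher in PC3 shCD267 and these neighbours were not. The choice of the IFIT genes used this contrast, so nothing is read from the comparison. A change in IFIT1B or SLC16A12 under the limits could not be seen.

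On chromosome 1, PTGFR, the prostaglandin F receptor gene next to IFI44L, was lower in PC3 shCD267, at 8.41 against 10.78, a log2 ratio of -2.37. The gene on the other side of the pair, ADGRL4, was below the limits on both PC3 arrays. The neighbours of IFI6, FGR and FAM76A, had ratios of 0.32 and -0.51. Around IFI27 on chromosome 14, its paralogues IFI27L1 and IFI27L2 had ratios of 0.21 and 1.03 in PC3, and neither has an ISRE core in its window. Around IFI35 on chromosome 17, the ribosomal protein gene RPL27 and VAT1 had ratios of -0.62 and -0.68. Of the 21 neighbours, 2 were at least 2-fold higher in PC3, IFI27L2 and PPP4R4, the second below background on both arrays, and 1 lower, PTGFR. Among all genes 5.76% were higher and 4.69% lower. The median ratio of the neighbours was -0.01. Besides those named above, CH25H, GIPC2, ADGRL2 and RND2 were below background on both PC3 arrays.

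**Figure D4:**
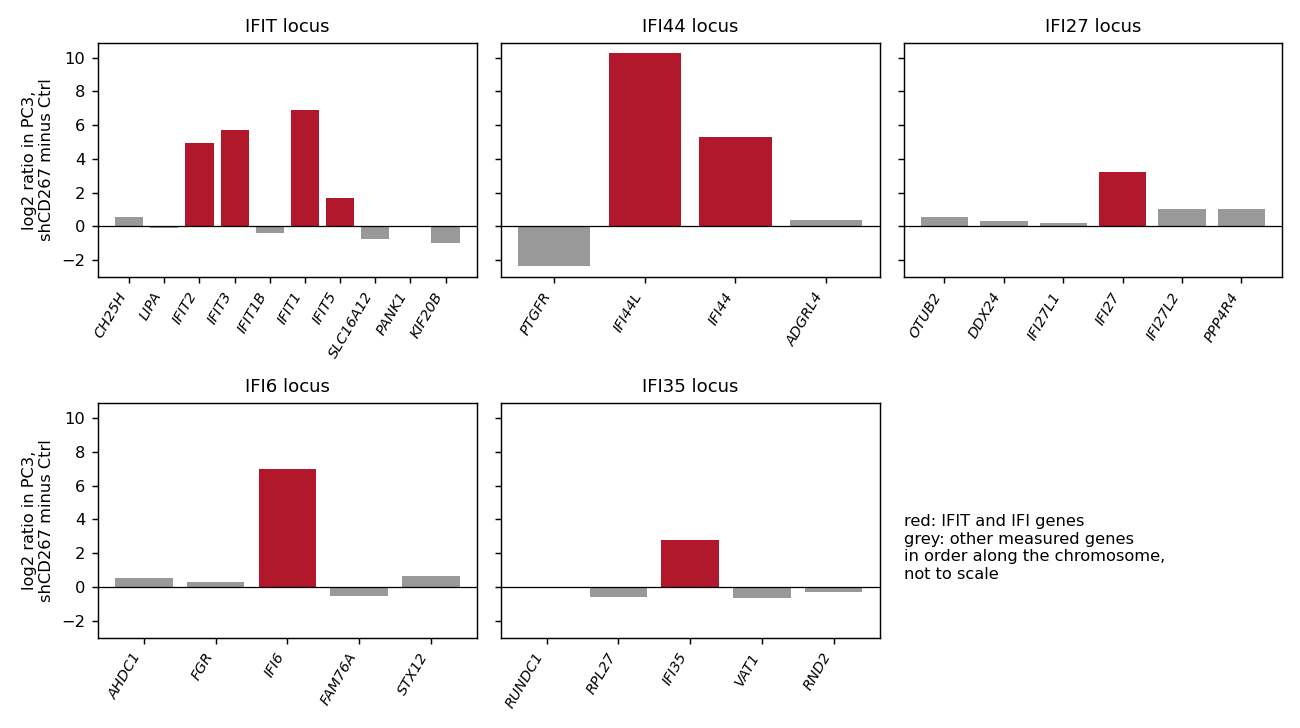
Log2 ratio in PC3, shCD267 minus Ctrl (vertical axis), of the measured genes around the IFIT and IFI genes, in chromosomal order and not to scale, with the 9 genes in red and other genes in grey. The red bars run from 1.68 to 10.25, and the grey bars from -2.37 to 1.04.

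Relatives by name or function that were not among the 9 were mixed. Of 8 measured, 6 were at least 2-fold higher in PC3 shCD267, where 5.76% of all genes were, with a median log2 ratio of 1.71, and none was lower. The membrane protein IFITM1, which blocks viral entry, had a ratio of 4.88, the DNA sensor IFI16 one of 4.62, NMI, the partner of IFI35, one of 2.98 and IFITM3 one of 1.94. IFIT1B and IFI27L1 had the lowest, -0.40 and 0.21. In 22RV1 after quantile normalization 2 of the 8 were higher and 1, IFI27L1, lower, near the 13.3% and 15.5% of all genes.

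The other genes of the pathway were taken by their roles. Of 39 type I interferon-stimulated genes on the arrays 38 had a ratio of at least 2-fold higher in PC3 shCD267, or 37 with values below background taken at the limit, and none was lower, with a median of 4.20, and the antiviral GTPase MX1, the enzyme RSAD2 and the synthetases OAS1 and OAS2 led with 9.34, 8.65, 8.51 and 8.40. The lowest were the exonuclease ISG20, 0.36, and EPSTI1, whose Ctrl value was below background and which was at least 1.79-fold higher. In 22RV1 after quantile normalization 9 of the 39 were higher and 4 lower, or 8 and 3 with values below background taken at the limit, with a median of 0.38, where 13.3% of all genes were higher and 15.5% lower. These genes, the relatives above and the 9 IFIT and IFI genes were listed with earlier results known. Their counts are therefore no independent evidence of a direction.

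Of 6 measured genes of RNA sensing, 4 were at least 2-fold higher in PC3 shCD267, where 5.76% of all genes were. The sensors of double-stranded RNA IFIH1 and RIGI had log2 ratios of 7.57 and 4.98, TLR3 was at least 6.69-fold higher against the background limit, and the helicase ZNFX1 had a ratio of 2.81. MAVS, the adaptor of IFIH1 and RIGI, and DHX58 had ratios of -0.77 and -0.06. Of 11 measured signalling genes and regulators 5 were at least 2-fold higher, beside the same 5.76% of all genes. Both lists, like the ligand and receptor lists below, were made with earlier results known, so their counts are no independent evidence of a direction. IRF9, the DNA-binding part of the ISRE complex, went from 7.03 to 12.49, a 44.1-fold difference, and USP18, the feedback inhibitor of the receptor, from 6.10 to 11.41. IRF1 had a ratio of 3.56 and IRF7 was at least 3.35-fold higher, whereas the kinases JAK1, TYK2 and JAK2 had ratios of 0.42, 0.40 and 0.27. The lowest ratios were -0.25 for the feedback inhibitor SOCS3 and -0.24 for the transcription factor IRF3, both below background on both PC3 arrays.

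The ligands and receptors were taken next. Of 20 measured interferon genes, 15 were below the background limit on both PC3 arrays, where a change could not be seen. None of the 20 was at least 2-fold higher in PC3 shCD267, beside 5.76% of all genes, so nothing is read from that count. The lowest ratios, -1.08 for IFNA16 and -0.84 for IFNA2, and that of 0.68 for IFNA7 compare values below background, and IFNA14 was at least 1.34-fold higher. IFNB1, the interferon that most cells make first, stood at 4.99 in PC3 shCD267 against a limit of 4.98, and at 4.62 in PC3 Ctrl. The lambda interferons IFNL1 and IFNL3 were above the limits on both PC3 arrays, with ratios of 0.75 and 0.67. The 6 receptor genes were above background in PC3. None passed 2-fold, where 5.76% of all genes were at least 2-fold higher and 4.69% lower, so nothing is read from that count either. Their ratios were 0.62 for IL10RB, 0.48 for IFNAR2, 0.46 for IFNGR2, 0.19 for IFNLR1, -0.02 for IFNGR1 and -0.24 for IFNAR1.

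**Figure D5:**
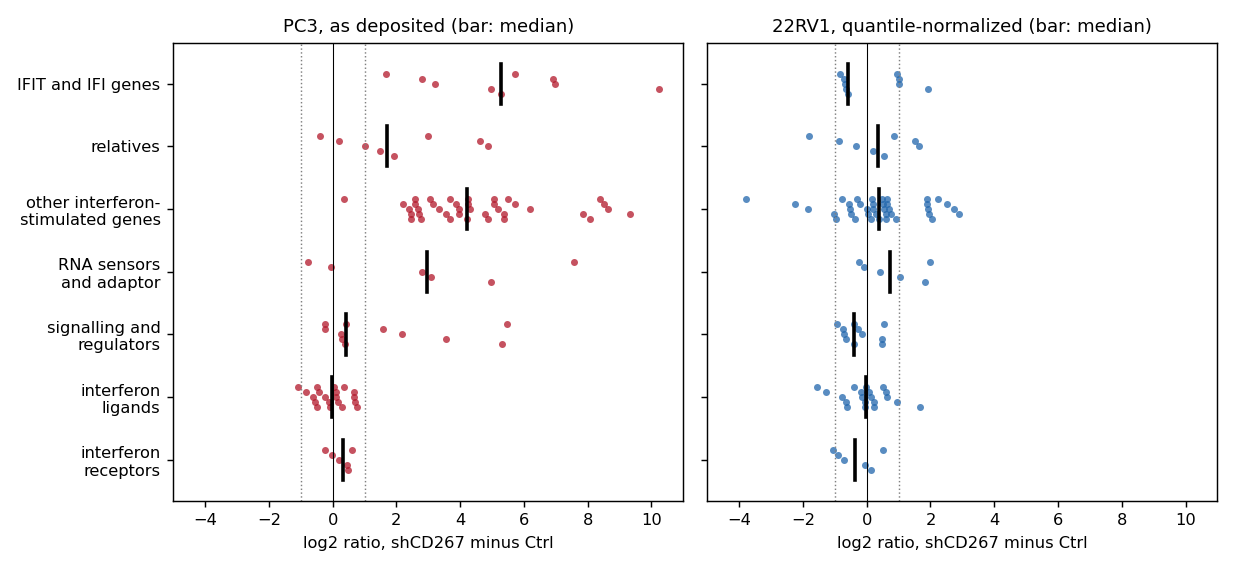
Log2 ratio, shCD267 minus Ctrl (horizontal axis), of each measured gene of 7 lists, in PC3 as deposited and in 22RV1 after quantile normalization, with a black bar at the median of each list and dotted lines at 2-fold. In PC3 the medians are 5.29 for the 9 IFIT and IFI genes, 4.20 for other interferon-stimulated genes, -0.02 for the ligands and 0.33 for the receptors. Of the 20 ligands, 15 are below background on both PC3 arrays.

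The genes whose pattern over the 4 arrays was most like that of the 9 were sought by the Euclidean distance between each gene's 4 values, centred on their own mean, and the median profile of the 9. That profile was 6.53 in PC3 shCD267, 0.51 in PC3 Ctrl, -2.66 in 22RV1 shCD267 and -3.82 in 22RV1 Ctrl. IFIT3 lay nearest of all genes, at 0.79, and IFI35 farthest of the 9, at 5.48, so the set is spread around its own median. Since the 9 genes define that profile, the nearness of a member to it is partly built in. The nearest 8 other genes were IFITM1 (1.06), CST1 (1.06), SAMD9 (1.36), SPARC (1.51), SEMA5A (1.77), SLC14A1 (1.85), OAS2 (1.86) and SP100 (1.86). IFITM1, SAMD9, OAS2 and SP100 are interferon-stimulated. CST1, a cystatin, SPARC, a matrix protein, SEMA5A, a semaphorin, and SLC14A1, a urea transporter, are not on the interferon lists, and their PC3 log2 ratios were 5.09, 5.95, 5.05 and 3.50. With 4 arrays, of which both 22RV1 arrays are at background for all of these but IFITM1, the likeness rests mainly on the PC3 pair and on the gap between the lines.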

How the data were processed

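Per the labels, total RNA of PC3 and 22RV1 cells was labelled with biotin and hybridised to 1 array per group. Clariom D arrays are named in the methods, with analysis in Expression Console and the Transcriptome Analysis Console of Affymetrix. RMA and Partek appear in the submitters' processing notes. The gene annotation came from a platform record that may not be of the array named in the methods, and the array type was not settled. The sources used here give no version or genome build. The authors deposited log2 values for 24351 probe sets, without a detection call. Of these, 17709 were paired with 1 gene symbol by the platform annotation, none with several and 6642 with none, and the symbols were updated through RefSeq gene numbers. A gene with several probe sets, of which there were 20, was taken at its brightest. A log2 ratio is shCD267 minus Ctrl, and 2-fold is the study's criterion. Where 1 array of a pair was below the background limit, the fold was computed against the higher of that limit and the gene's own value, and written as "at least". Quantile normalization, centring, loess (span 0.4), raising values to the limit, the mean of probe sets and thresholds of 1.5-fold and 3-fold were tried, and counts with values below background taken at the limit were added after seeing the data. Steps were tested on simulated arrays. Python 3.11.15, pandas 2.3.3 and statsmodels 0.14.6 were used. The members and lists were chosen with earlier results of these data known. Named genes were the 9 members, of each interferon list up to 4 with the largest and 2 with the smallest PC3 ratio, the 2 nearest measured genes on each side, the 8 most alike genes and TNFRSF13B. JAK1, TYK2, JAK2, HOXB13, FOLH1, KLK3, TGFBI, ANXA1, CD44, IFNB1 and the genes named in the closing section were chosen after their values were seen.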

Additional observations from a re-analysis of the deposited data

Results flagged for a closer look

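LAMP3, a lysosomal membrane protein on the list of interferon-stimulated genes, was the one listed gene at least 2-fold higher with shCD267 in one line and at least 2-fold lower in the other with the values as deposited. Its log2 ratio was 2.76 in PC3, from 9.62 to 12.38, and -2.02 in 22RV1, from 7.33 to 5.31. The 22RV1 shCD267 value lay just above the limit of 5.30, and the ratio was -3.78 after quantile normalization. The difference between the lines was not tested. No IFIT or IFI gene ran in opposite directions by this measure. As deposited, only 2.01% of all genes were at least 2-fold lower in 22RV1. The share of all genes with opposite calls was not counted, so nothing is read from these counts.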

How the results depend on the processing

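In PC3 all 9 genes were at least 2-fold higher under each alternative tried, and their median log2 ratio stayed between 5.21 and 5.36. In 22RV1 the count of 6 became 3 after quantile normalization, 1 after centring the columns on a common median, 1 after loess and 3 when genes below background on both arrays were left out. It was also 3 when, in addition, the dim value of a pair was taken at the limit, an alternative chosen after seeing the data, and the cause was not tested. It was 8 when values below the limit were raised to it, where the limits themselves differ between the 22RV1 arrays, so that dim genes gain a ratio by construction. The median in 22RV1 of 1.06 became -0.58 after quantile normalization, -0.57 after centring and -0.44 after loess. The ratio of IFIT5 in 22RV1 became -0.58, -0.58 and -0.52 under these alternatives, and that of IFI35 became -0.71, -0.57 and -0.62. The median difference between PC3 Ctrl and 22RV1 Ctrl, 3.82 as deposited, was 2.20 after quantile normalization and 2.22 after centring. Each of the 9 genes has 1 probe set, so the mean of probe sets changed none of these values. No paired analysis was possible because each group has 1 array. The arrays carry no detection call, and probe sequences, which could show cross-hybridisation among the IFIT genes, were not analysed here.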

Other observations

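In 22RV1 after quantile normalization 9 of the 39 other interferon-stimulated genes had a ratio of at least 2-fold higher with shCD267 and 4 of at least 2-fold lower, where 13.3% and 15.5% of all genes did. The lipid scramblase PLSCR1 had a log2 ratio of 2.88, the HECT-domain ligases HERC5 and HERC6 had 2.74 and 2.53, SHFL had 2.25, the partners PARP9 and DTX3L had 2.05 and 1.94, the proteasome subunit PSMB9 had 1.91, LGALS3BP had 1.89 and PARP14 had 1.88. HERC5, SHFL and PSMB9 were below background in 22RV1 Ctrl and were at least 3.30-fold, 1.24-fold and 3.29-fold higher, so that SHFL was not shown to pass 2-fold. The 4 lower genes were LAMP3 with -3.78, SP110 with -2.26, the ubiquitin-like modifier ISG15 with -1.83 and SP100 with -1.04, the last below background on both 22RV1 arrays. With deposited values ISG15 and SP110 had ratios of -0.19 and -0.49 in 22RV1, under 2-fold. In PC3 the ratios of these genes ran from 2.76 to 5.49. They were chosen after their values were seen, and the difference between the lines was not tested.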
